A study of Capitella teleta with 10 samples.

Results

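The larva of the annelid Capitella teleta was compared between stage 5 and stage 8 by ATAC-seq, an assay that uses a transposase to insert sequencing adaptors into accessible DNA, so that reads pile up where chromatin is open. All 46409 consensus peaks of the deposited table were taken, in 2 libraries of stage 5 and 2 of stage 8, which are 4 of the 10 libraries of the time course, together with the 4 lists of called peaks of these stages. The other 6 libraries (64-cell embryo, gastrula and stage 4tt larva, 2 each) served as earlier levels. All animals were untreated, each library held many whole larvae, and the stage 5 and stage 8 libraries were sequenced together, whereas the 6 earlier libraries came from another sequencing centre. The labels' growth protocol is that of a different annelid, Owenia fusiformis, and the species is therefore given as in the organism field and the titles.

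Capitella teleta has a larva that feeds on yolk and does not eat before metamorphosis. Trunk segments form during the larval stages, so the interval from stage 5 to stage 8 covers the later part of larval growth. Regions of open chromatin mark promoters, enhancers and other places where proteins have displaced nucleosomes. In a whole animal the signal of a region depends on how open it is in each cell and on how many cells carry it open, and these cannot be told apart here. Neighbouring genes of the peaks are not given, since the gene table used here could not be placed on the numbered scaffolds of the files. For the same reason the stage labels were not checked against marker genes.

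A unit below is the normalised signal that the authors deposited, and a change is the difference of log2(value + 1), stage 8 minus stage 5. A peak is called opened or closed where limma gave an adjusted p under 0.05, with any size of change. The consensus peaks had a median width of 810 bp and lay on 5551 scaffolds, 3369 of them as the one peak of their scaffold. The reads in peaks, recovered from the signal and therefore approximate, were 37881069 and 43973691 at stage 5 and 56850456 and 37426125 at stage 8, so the deepest and the shallowest library were of the same stage. The median peak held between 437 and 677 reads.

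Nearly equal numbers of peaks opened and closed between the larval stages. The fit called 15187 peaks changed (32.7% of all tested), of which 7107 opened (15.3% of all tested) and 8080 closed (17.4% of all tested). The median change over all peaks was 0.00. Opened peaks therefore made up 46.8% of the changed ones, and with totals equalised without the 10 strongest peaks they made up 51.8%, so the majority direction depends on the scaling. The libraries of the stages did not overlap in 73.2% of all peaks, among them all opened and all closed peaks and 60.2% of the peaks that were not called. Both stages had 2 libraries, and the count of changed peaks fell when any one was left out: to 9824 without the first stage 5 column of the table, 9507 without the second, 9620 without the first stage 8 column and 9756 without the second. In every one of these 4 fits 3262 of the opened and 4264 of the closed peaks were called again in the same direction.

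Most changes were small. Of the opened peaks 29.0% moved by less than 0.5 on the log2 scale, 54.2% by 0.5 to 1, 14.6% by 1 to 2 and 2.18% by 2 or more. Among the closed peaks these shares were 36.6%, 43.6%, 16.2% and 3.65%. The median change was 0.64 in opened and −0.60 in closed peaks. The tail was longer on the closed side, where the most extreme 1 in 100 peaks moved by −3.83 or more, against 2.86 among the opened peaks. These values include peaks with very low signal. Among called peaks whose lower stage had a mean of at least 20 units, the largest fall was −3.47 and the largest rise 3.69. Whether the longer tail holds away from low signal was not tested. Opened peaks had a median width of 900 bp and closed peaks one of 1037 bp, against 732 bp in peaks that were not called. In the 6 earlier libraries the closed peaks had been the stronger ones, with a median level of 806.9 units against 345.9 in opened peaks and 307.1 over all peaks.

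The largest rises came from weak peaks at stage 5. CTEL_peak_24645, from 3744 to 5212 on scaffold 3627, had 66.2 and 34.4 units at stage 5 and 736.8 and 539.1 at stage 8. Both stage 8 libraries were far above both stage 5 libraries, a 12.7-fold ratio of the means (log2 change 3.69 ± 0.98, SE; adjusted p = 0.0357). The peak had been about as open at stage 4tt, with 562.5 and 484.2 units, as at stage 8. Its 64-cell libraries differed widely from each other, at 208.4 and 23.3 units. The call was kept in the fit of the 4 larval libraries alone. It was lost without any one of them, with changes between 3.23 and 4.16. The next rise was steadier. CTEL_peak_24895, a peak of only 135 bp (225 to 359 on scaffold 36716), had 44.9 and 32.9 units at stage 5 and 341.5 and 356.0 at stage 8, a log2 change of 3.15 ± 0.30 (SE; adjusted p = 2.64e-06). Both peaks were the one consensus peak of their scaffold.

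Rises of the same order occurred on long scaffolds with many peaks. CTEL_peak_23183 (35139 to 35422 on scaffold 338, which holds 31 peaks) had 46.3 and 48.9 units at stage 5 and 391.8 and 457.5 at stage 8. Its log2 change was 3.13 ± 0.29 (SE; adjusted p = 1.88e-06), and its level in the 3 earlier stages had been between 20.3 and 42.7 units, so it was open to this extent at stage 8 alone of the 5 stages. CTEL_peak_4975 (364874 to 365303 on scaffold 13) was deeper covered, with 113.5 and 123.2 units at stage 5 and 790.3 and 744.1 at stage 8. The libraries of each stage lay close together, and the log2 change was 2.69 ± 0.20 (SE; adjusted p = 1.79e-07). CTEL_peak_38489 (135485 to 135821 on scaffold 69) rose from 48.6 and 35.5 units to 280.1 and 272.7. The other 5 of the 10 largest rises, CTEL_peak_23100, CTEL_peak_25177, CTEL_peak_4498, CTEL_peak_22883 and CTEL_peak_42121, had log2 changes from 2.63 to 2.98. The call of CTEL_peak_42121 (adjusted p = 0.0119) was lost without the first stage 5 column, the second stage 5 column or the second stage 8 column. It was also lost without trend and robust estimation (adjusted p = 0.0643), and kept in the fit of the 4 larval libraries alone. The gastrula libraries of this peak, which enter the main fit, differed, at 2.72 and 19.9 units. These 10 were taken among peaks whose lower stage had a mean of at least 20 units.

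The largest falls included peaks that had been well open in the embryo. CTEL_peak_19443 (45410 to 47071 on scaffold 286) had 1137 and 989.3 units at stage 5 and 103.4 and 86.3 at stage 8. The fall was 11.2-fold between the means (log2 change −3.47 ± 0.12, SE; adjusted p = 9.23e-10), from a level that had stayed between 1063 and 1185 units from the gastrula to stage 5. This peak was 89 bases from its nearest neighbour. CTEL_peak_6624 (780 to 1856 on scaffold 14244, alone there) had 346.3 and 400.4 units at stage 5 and 38.9 and 31.3 at stage 8, a log2 change of −3.38 ± 0.18 (SE; adjusted p = 1.15e-08). Like the former, it had been open in all 4 earlier stages, with means between 373.4 and 685.0 units. CTEL_peak_5843 (164092 to 164610 on scaffold 137) kept 1118 to 1204 units on average in the gastrula, stage 4tt and stage 5 before it fell to 209.5 and 185.5 at stage 8.

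Some other large falls followed a rise at stage 5, although the step from stage 4tt to stage 5 is also one between sequencing batches. CTEL_peak_4372, a peak of 249 bp on scaffold 1243 (15629 to 15877), had 376.9 and 372.1 units at stage 5 and 39.1 and 51.5 at stage 8 (log2 change −3.03 ± 0.43, SE; adjusted p = 0.000112). Its means in the 64-cell embryo, the gastrula and stage 4tt were 79.1, 51.5 and 37.8 units, so stage 5 stood above every other stage. CTEL_peak_14969 (91200 to 92323 on scaffold 229) had 281.9 and 299.7 units at stage 5 against 36.0 and 41.2 at stage 8, and was likewise highest at stage 5. Its log2 change was −2.88 ± 0.72 (SE; adjusted p = 0.0188). That SE takes in the spread of all 10 libraries, and the 64-cell libraries differed, at 25.5 and 143.7 units. The call was kept in the fit of the 4 larval libraries alone. It was lost without any one of them, while the change stayed between −2.98 and −2.79. The remaining 5 of the 10 largest falls, CTEL_peak_25543, CTEL_peak_4463, CTEL_peak_4183, CTEL_peak_5265 and CTEL_peak_6514, had log2 changes from −2.71 to −2.59. Of these, CTEL_peak_25543 and CTEL_peak_6514 were highest at stage 5. The others, CTEL_peak_4463, CTEL_peak_4183 and CTEL_peak_5265, were lower at stage 5 than at stage 4tt.

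To ask how change depended on peak strength, peaks were ranked by their mean over the 6 earlier libraries, which are not part of the difference, and divided into 10 classes of equal size, of which class 1 was the weakest. The changes of weak peaks were more scattered and those of strong peaks were called more often. The SD of the log2 change fell from 1.02 in class 1 (median 5.67 units) to 0.46 in class 10 (median 2053 units). The SD of the replicates fell faster, from 0.48 to 0.07 at stage 5 and from 0.47 to 0.07 at stage 8. Called were 6.85% of the weakest peaks and 59.6% of the strongest, although the median absolute change was 0.44 in the former and 0.28 in the latter. Called peaks of class 1 had moved by a median of 2.48, those of class 10 by 0.49. A change of a given size was thus not called equally well at all strengths, and with a pseudocount of 10 in place of 1 the ratio of the SD in class 1 to that in class 10 was 1.17, far nearer to 1 than the ratio of 1.02 to 0.46.

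**Figure D1:**
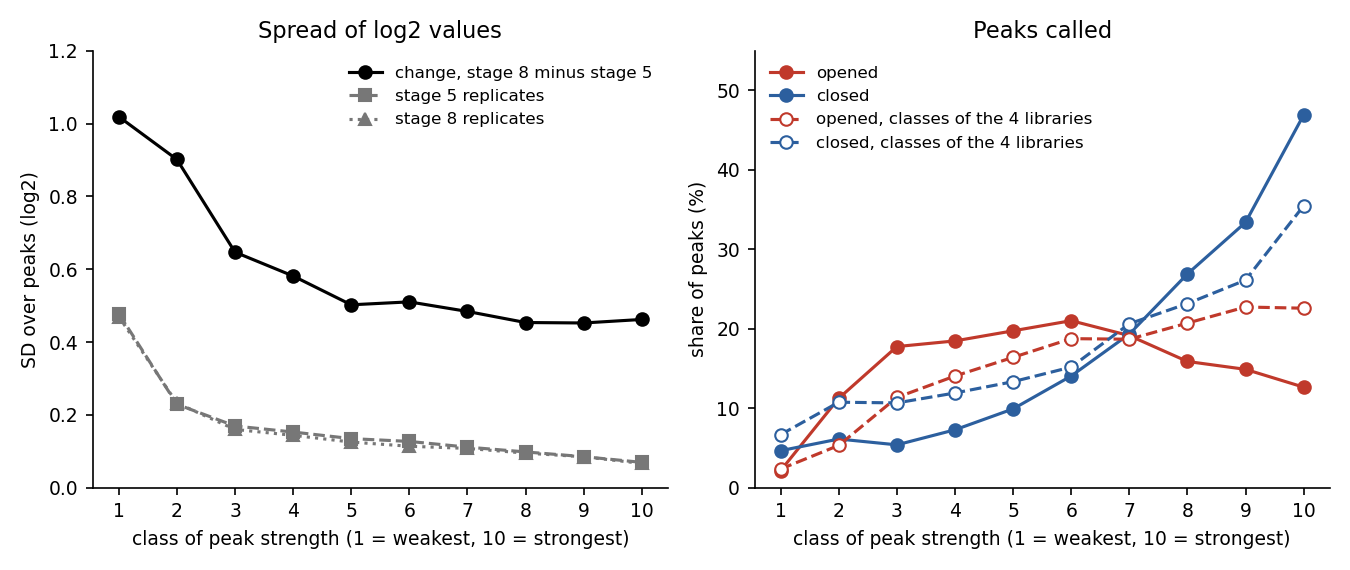
Change from stage 5 to stage 8 by class of peak strength. Left, SD over the peaks of a class of the log2 change (black) and of the replicates (grey), with classes ranked by the 6 earlier libraries. The SD of the change falls from 1.02 to 0.46. Right, share of peaks opened (red) and closed (blue) in the same classes (filled points) and in classes ranked by the 4 larval libraries (open points). In class 10 closed peaks outnumber opened peaks under both rankings.

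The direction of change also followed strength. In class 10, the strongest, 46.9% of peaks closed and 12.7% opened, and the median change was −0.19. In class 3, 5.41% closed and 17.8% opened, with a median change of 0.17, and the opened share reached its maximum of 21.0% in class 6. Under all 16 fits tried, scalings included, closed peaks outnumbered opened peaks in class 10 and opened peaks outnumbered closed peaks in classes 3 and 6. In class 1 closed peaks were more frequent in 14 of the 16 fits and opened peaks in the other 2, quantile normalization and the filter on low values. The ranking itself matters here. Ranked by the 4 larval libraries, class 3 was nearly even (11.4% opened and 10.7% closed), closed peaks were the more frequent in class 2 (5.34% opened and 10.8% closed, against 11.3% and 6.14% in the other ranking), and the opened share was highest in class 9 (22.8%). In that ranking class 10 had a median change of −0.07, and 22.6% of its peaks opened, so the excess of closed peaks was smaller among the peaks strongest in the larva than among those strongest before it. The earlier libraries are also another sequencing batch, whose part in this was not tested.

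A few very strong peaks behaved in another way. They lie on 6 scaffolds that were picked after their values had been seen, by a mean above 100000 units in the 64-cell embryo for at least 1 of their peaks. The strongest, CTEL_peak_13150 (10269 to 12505 on scaffold 2067), had 148253 and 166577 units at stage 5 and 305803 and 327519 at stage 8, a 2.01-fold rise (log2 change 1.01 ± 0.13, SE; adjusted p = 0.00309). CTEL_peak_15319 (5964 to 7820 on scaffold 2314) and CTEL_peak_16955 (5463 to 7252 on scaffold 2500) both rose 2.02-fold. In CTEL_peak_16955 the means of the 64-cell embryo, gastrula, stage 4tt, stage 5 and stage 8 were 978638, 482883, 332439, 79079 and 159676 units. The level fell at each step to stage 5 and rose at stage 8, where it was still far below the embryo. The 16 peaks of these scaffolds held 1.77% and 2.04% of all units in the stage 5 libraries and 3.76% and 3.92% in the stage 8 libraries, against 18.2% to 22.6% in the 64-cell embryo. All called peaks among the 16 opened, but some were not called, such as CTEL_peak_15320 (log2 change 0.02) and CTEL_peak_15321 (−0.16). Under quantile normalization the changes of all 3 named peaks were 0 and the adjusted p was 1, since that scaling gives peaks of equal rank equal values.

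Outside these scaffolds strong peaks moved in both directions. The 3 strongest falls among called peaks were small. CTEL_peak_46062, a peak of 4907 bp on scaffold 98 (231252 to 236158), had 22833 and 22266 units at stage 5 and 17787 and 17216 at stage 8. Its log2 change of −0.37 ± 0.04 (SE; adjusted p = 8.72e-06) exceeded the spread of the replicates several times over, and under quantile normalization the change was −1.19. CTEL_peak_13221 (17297 to 21520 on scaffold 208) had 16466 and 15526 units against 13408 and 13033, a log2 change of −0.27. CTEL_peak_7904 (248796 to 253960 on scaffold 154) had 17437 and 15375 units against 14800 and 13869. This last call (log2 change −0.19; adjusted p = 0.0108) was lost without the first stage 5 column (adjusted p = 0.166) and without the second stage 8 column (0.136), as well as without trend and robust estimation (0.121). Larger changes occurred among peaks of similar strength, of which 3 are given here after their values were seen. CTEL_peak_29599 (scaffold 45468) had 31738 and 27841 units at stage 5 and 58312 and 56208 at stage 8, a log2 change of 0.95 (adjusted p = 0.00084). Its means in the 64-cell embryo, gastrula and stage 4tt were 72713, 39775 and 38708 units. Like CTEL_peak_16955 it thus fell at each step to stage 5 and then rose, so this course was not limited to the scaffolds above. CTEL_peak_25836 (scaffold 38439) changed by 0.73, and CTEL_peak_36320 (scaffold 62) by −0.79. The 64-cell mean of CTEL_peak_25836, 47928 units, was also above its stage 5 mean of 18744.

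Broad peaks were called more often than narrow ones over all peaks, while the order within classes of strength varied. Over 5 classes of width of equal size, from the narrowest to the broadest (median 298 and 1739 bp), the share of changed peaks was 21.6%, 26.2%, 31.0%, 37.0% and 47.9%. The median absolute change went the other way, from 0.36 to 0.28. The narrowest class opened more often than it closed (13.3% against 8.27%) and the broadest class closed more often (27.1% against 20.8%). Width and strength rose together, with a median of 101.7 units in the narrowest and 1005 in the broadest class in the earlier libraries.

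Within 5 classes of strength, ranked by the 4 larval libraries, the order was different. In strength class 3, the middle one, 50.0% of the 816 narrowest peaks changed and 29.8% of the 450 broadest. In strength class 4, 54.9% of the 144 narrowest and 34.8% of the 2453 broadest changed. Strength class 5, the strongest, held only 16 of the narrowest peaks, of which 62.5% changed, against 57.5% of the 5820 broadest, and from width class 3 to 5 its share rose from 43.1% to 57.5%. In strength class 1 the broadest peaks changed more often, 15.7% against 10.6%. The share of changed peaks in the broadest less that in the narrowest class was 26.3 percentage points over all peaks and −8.66 points as the average over the 5 strength classes. In strength class 3 the narrow peaks that changed were mostly opened (31.5% of the narrowest peaks opened and 18.5% closed), and the broad ones mostly closed (8.44% opened and 21.3% closed).

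**Figure D2:**
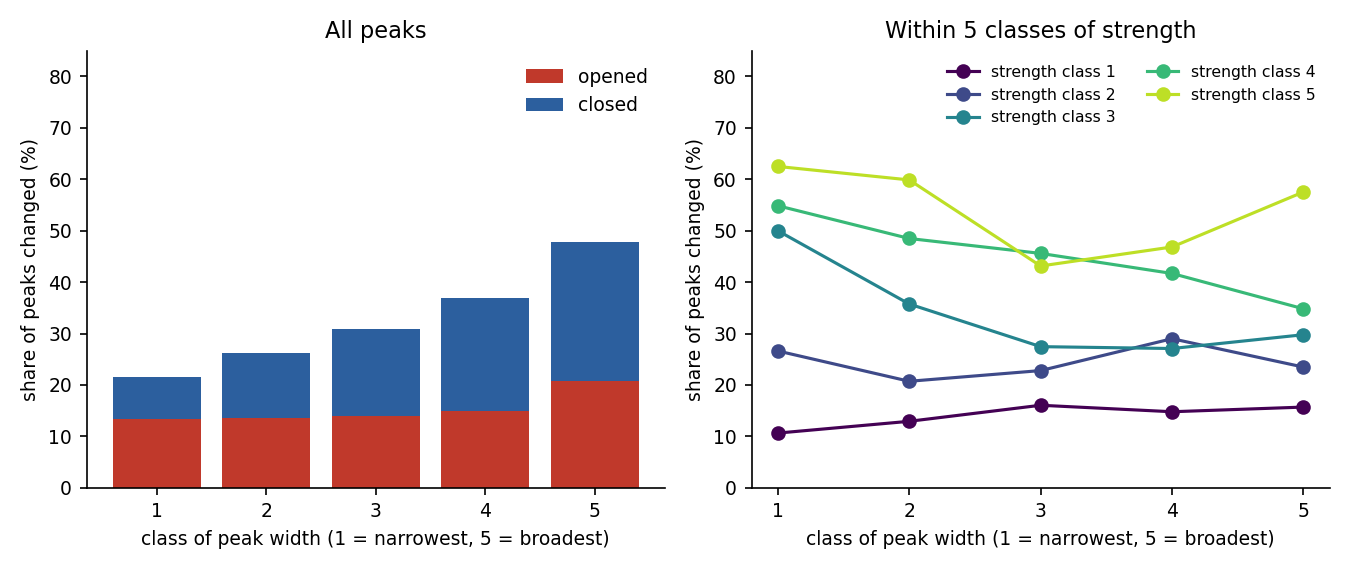
Share of peaks changed from stage 5 to stage 8 by class of peak width. Left, all peaks, opened (red) and closed (blue) stacked, rising from 21.6% to 47.9% in total. Right, the same share within each of 5 strength classes ranked by the 4 larval libraries, where class 3 goes from 50.0% in the narrowest to 29.8% in the broadest peaks.

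Spacing was described by the gap to the nearest consensus peak on the same scaffold. Changed peaks were most frequent at moderate spacing between edges. The share in crowded peaks (gap under 1000 bases) less that in isolated ones (10000 or more, or alone) was 19.0 percentage points, and it was 5.87 points by distance between peak centres. Of peaks with a gap from 250 to under 1000 bases 40.3% changed, of those from 1000 to under 3000 bases 33.7%, from 3000 to under 10000 bases 29.0% and with 10000 or more 21.3%. Peaks under 250 bases from a neighbour were below the maximum, at 32.1%, and peaks alone on their scaffold were lowest, at 18.7%. The lone peaks were also weak, with a median of 38.8 units in the earlier libraries, and their changes had an SD of 1.10, the widest of these classes. Among the strongest of the 5 strength classes the share still fell from 62.7% in the 250 to 1000 base class to 43.8% in the 3000 to 10000 base class. Among the weakest these shares were 13.4% and 13.0%.

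Neighbouring peaks tended to move together. Of 40858 adjacent pairs 6344 had both peaks changed, and in 80.6% of these the direction was the same (2010 pairs opened, 3102 closed, 1232 opposite). The share fell with distance, from 86.8% of pairs under 250 bases apart through 85.1%, 82.2% and 76.1% to 70.5% of pairs 10000 or more bases apart. Over all adjacent pairs, called or not, the sign was the same in 61.7%, and this share fell likewise from 68.7% to 56.4%. These are descriptions over peaks that share libraries and are not independent of each other.

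**Figure D3:**
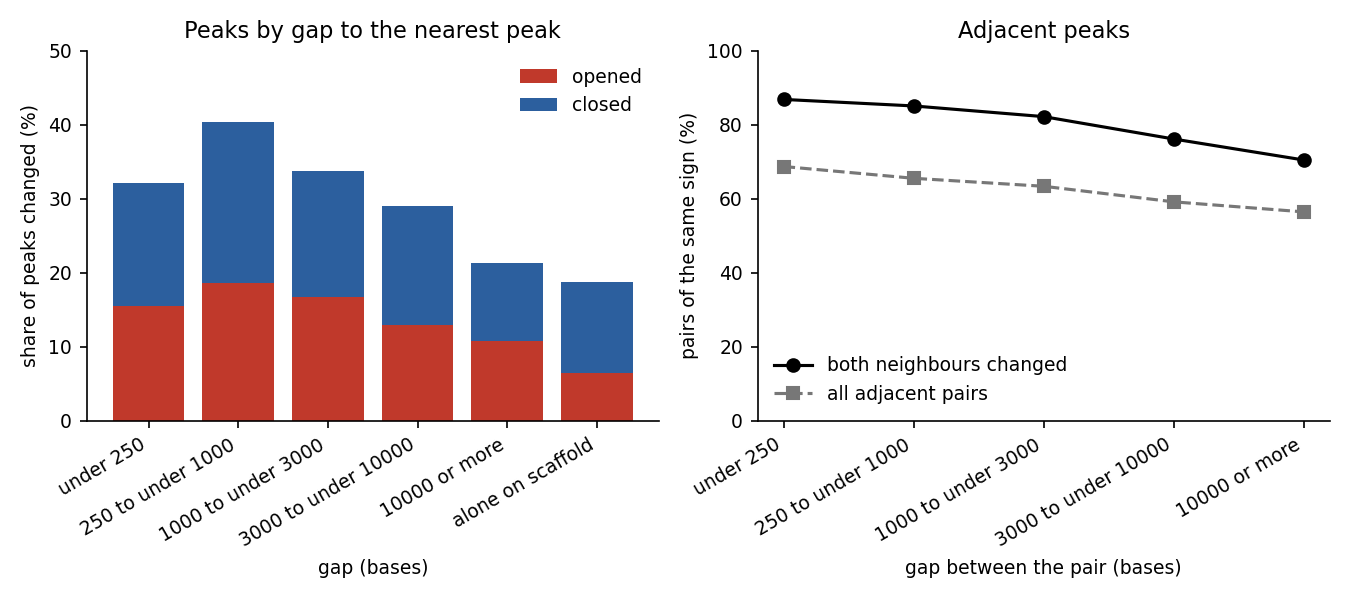
Spacing and change from stage 5 to stage 8. Left, share of peaks opened (red) and closed (blue) by the gap to the nearest consensus peak, highest from 250 to under 1000 bases (40.3%) and lowest for peaks alone on a scaffold (18.7%). Right, share of adjacent pairs with the same sign of change by the gap between them, for pairs with both peaks changed (black, 86.8% to 70.5%) and for all pairs (grey, 68.7% to 56.4%).

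Closed peaks formed the longer runs. A run is a stretch of consecutive consensus peaks of a scaffold that all changed the same way. Runs of 2 or more held 56.9% of the closed and 46.5% of the opened peaks. Runs of 5 or more numbered 199 on the closed side, with 1438 peaks, and 70 on the opened side, with 408 peaks. Of the runs of 10 or more 28 were closed and 1 was opened. Under all 16 fits runs of 5 or more were more frequent on the closed side, by 185 to 88 with equal totals and by 311 to 254 with edgeR on recovered reads. Among 662 scaffolds with 20 or more peaks, 15 had at least 50% of their peaks closed and 4 at least 50% opened. On scaffold 815 closed peaks made up 19 of 23, with a median change of −0.59, and on scaffold 415 opened peaks made up 19 of 27, with a median change of 0.56 and none closed. These scaffolds were the extremes of each direction by share.

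The longest closed run comprised 21 peaks over 44.2 kb of scaffold 1 (910664 to 954856, CTEL_peak_181 to CTEL_peak_201). In all 21 both stage 5 libraries were above both stage 8 libraries, which holds for every closed peak and so adds nothing about the run. Over all peaks the libraries of the stages did not overlap in 73.2%. The changes in the run lay between −1.64 and −0.32 with a median of −0.90. The peaks were of all sizes. CTEL_peak_193, the strongest of them at stage 5, had 5135 and 4433 units in its stage 5 libraries and a log2 change of −0.43. CTEL_peak_190, 285 bp wide, changed most, by −1.64 (adjusted p = 2.92e-06). The consensus peaks on both sides of the run did not pass the test, with changes of 0.30 (CTEL_peak_180, adjusted p = 0.141) and −0.27 (CTEL_peak_202, adjusted p = 0.115). A second closed run on the same scaffold, CTEL_peak_62 to CTEL_peak_77, held 16 peaks from 359666 to 395607.

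The longest opened run comprised 10 peaks over 40.1 kb of scaffold 57 (143383 to 183436, CTEL_peak_34425 to CTEL_peak_34434). All 10 were higher in both stage 8 libraries than in both stage 5 libraries, as was every opened peak. Their changes lay between 0.38 and 1.10 with a median of 0.76. CTEL_peak_34428, the broadest of them at 1658 bp, had 635.4 and 647.3 units at stage 5 and 1184 and 1223 at stage 8 (adjusted p = 3.58e-05). CTEL_peak_34425 at one end changed most, from 177.1 and 193.0 units to 376.2 and 419.8. The median log2 level of the run had risen at each stage from the gastrula on, from 7.34 through 7.81 at stage 4tt and 8.45 at stage 5 to 9.22 at stage 8. In all 10 peaks, however, the 64-cell mean was above the gastrula mean, as in CTEL_peak_34428 with 653.4 and 270.0 units. The rise from the gastrula on thus followed a lower level there than in the 64-cell embryo. The step from stage 4tt to stage 5 is also one between sequencing batches. On the closed run of scaffold 1 the median log2 level from the gastrula to stage 8 was 9.50, 9.46, 9.82 and 8.92, so it was above its gastrula level at stage 5 and below it at stage 8. Without any one larval library the longest opened run had 7 peaks and the longest closed run 16 to 20.

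**Figure D4:**
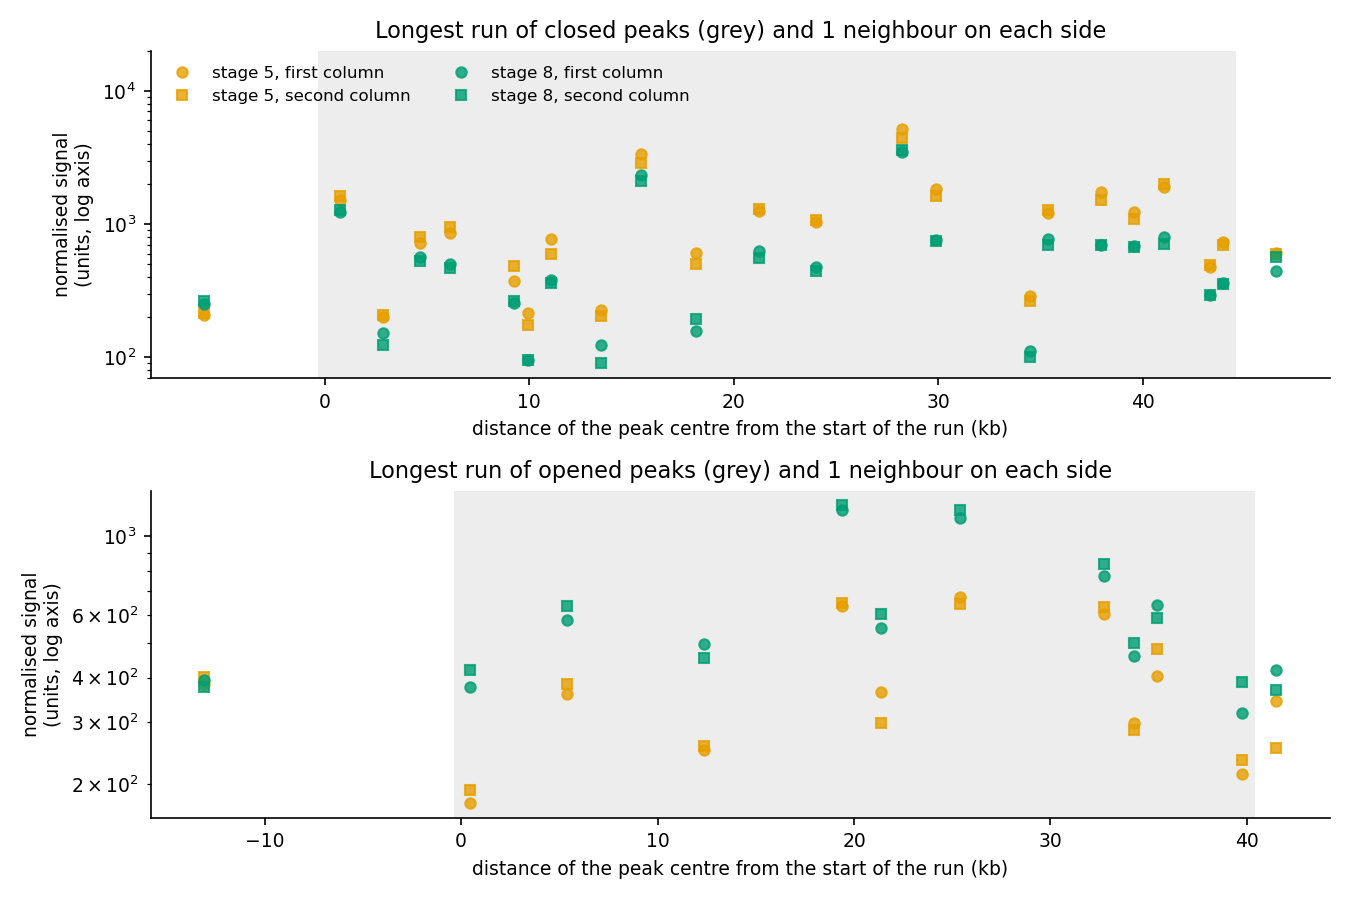
Normalised signal in the longest closed run (top, 21 peaks, grey area) and the longest opened run (bottom, 10 peaks), with 1 neighbouring peak on each side. Each point is a peak in 1 library, placed by the distance of its centre from the start of the run, for stage 5 (orange) and stage 8 (green) on a log axis. Within the runs the libraries of the stages do not overlap in any peak, as in every called peak and in 73.2% of all peaks.

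Whether changed peaks came back to an embryonic level was asked with the mean log2 level of the 64-cell embryo and the gastrula as the reference. A peak counted as away from it if stage 5 differed by 1 or more, and as returned if stage 8 was within 0.5 of it. Both larval stages lay slightly above this reference over all peaks, with medians of 0.27 and 0.24, and embryo and larva differ in sequencing batch, so a larval level near the reference and a shift between batches cannot be told apart. Most changes did not concern peaks away from the reference at stage 5: of 15187 changed peaks 2199 (14.5%) were, against 19.3% of all peaks. Of these 2199 peaks 362 returned, which is 16.5%, beside 6.99% of the 8978 such peaks among all. With each stage taken relative to its median over all peaks these shares were 15.4% and 7.59%. A return needs a move of at least 0.5, and calling selects such moves, so a higher share among changed peaks is built in. Among peaks not called the share was 3.92%. Stage 5 also enters both the change and the distance from the reference.

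Moves away from the embryo, of any size, were more frequent than returns to within 0.5, as they were over all peaks. They made up 78.0% of the 1095 opened but 43.4% of the 1104 closed peaks that were away from the reference. Of the 2199 peaks 1333 (60.6%) moved further away, beside 54.6% of all 8978 peaks away from the reference, 367 came part of the way back, 362 returned and 137 went past the reference by more than 0.5. By construction only peaks that opened from below or closed from above could return. Of 241 opened peaks that had been below the embryo at stage 5, 93 returned (38.6%), 119 came partway and 29 went beyond. Of 625 closed peaks that had been above it, 269 returned (43.0%), 248 came partway and 108 went beyond. Opened peaks already above the embryo numbered 854, and their median distance grew from 1.18 to 1.91. The 479 closed peaks already below it went from a median of −1.37 to −2.19. The returned share among closed peaks was between 39.4% and 53.2% in all 5 classes of strength, and with so few peaks per class no order among them is read.

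The reference changed the share returned. Against the 64-cell embryo alone 24.1% of the changed peaks that were away from it returned, and against the gastrula alone 8.07%. Different peaks were away from each reference, and the difference between the shares was not tested. Against stage 4tt the share was 18.8%.

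Single peaks show both kinds of return. CTEL_peak_23100 (7153 to 7984 on scaffold 3360) had means of 237.3, 570.1 and 173.6 units in the 64-cell embryo, gastrula and stage 4tt larva. It had only 45.7 and 28.3 units at stage 5 and again 255.6 and 329.2 at stage 8, so its distance from the reference went from −3.22 to −0.24. The 64-cell libraries differed in this peak, at 129.7 and 345.0 units, as did the gastrula libraries, at 697.6 and 442.7. The call (adjusted p = 0.0132) was lost without the second stage 5 column (0.0808) and without the second stage 8 column (0.0671). CTEL_peak_21357 (5852 to 6824 on scaffold 310) had like means in the 3 earlier stages, 209.0, 221.3 and 219.9 units, but its 64-cell libraries differed, at 90.3 and 327.6 units. It dropped to 51.9 and 41.7 units at stage 5 and stood at 231.3 and 224.9 at stage 8 (adjusted p = 0.00779, and 0.0618 without the second stage 5 column). CTEL_peak_40534 (53787 to 54519 on scaffold 756) was low at stage 4tt as well as at stage 5, with 51.6 and 49.4 units on average, and rose to 307.0 and 265.4. Its embryo libraries differed, at 83.3 and 250.1 units in the 64-cell embryo and 493.0 and 221.3 in the gastrula.

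The returned falls mirrored this. CTEL_peak_4372, described above, went from 2.62 above the reference to −0.41, but its 64-cell libraries differed, at 41.8 and 116.5 units. CTEL_peak_7850 (148 to 685 on scaffold 15361) was high at both stage 4tt and stage 5, with means of 286.3 and 218.5 units, and fell to 40.6 and 42.8 at stage 8 (log2 change −2.34 ± 0.41, SE; adjusted p = 0.000879). Its 64-cell and gastrula means had been 68.4 and 56.9 units, with gastrula libraries that differed, at 26.1 and 87.6 units. CTEL_peak_20942 (237459 to 238210 on scaffold 304) had 215.0 and 209.6 units at stage 5 and 41.1 and 38.8 at stage 8, but its gastrula libraries differed from each other, at 120.0 and 17.5 units. Its call (adjusted p = 0.0431) was lost without any one larval library, with log2 changes between −2.42 and −2.34. It was also lost without the 64-cell libraries (adjusted p = 0.0688) and without trend and robust estimation (0.0933). It was kept in the fit of the 4 larval libraries alone.

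**Figure D5:**
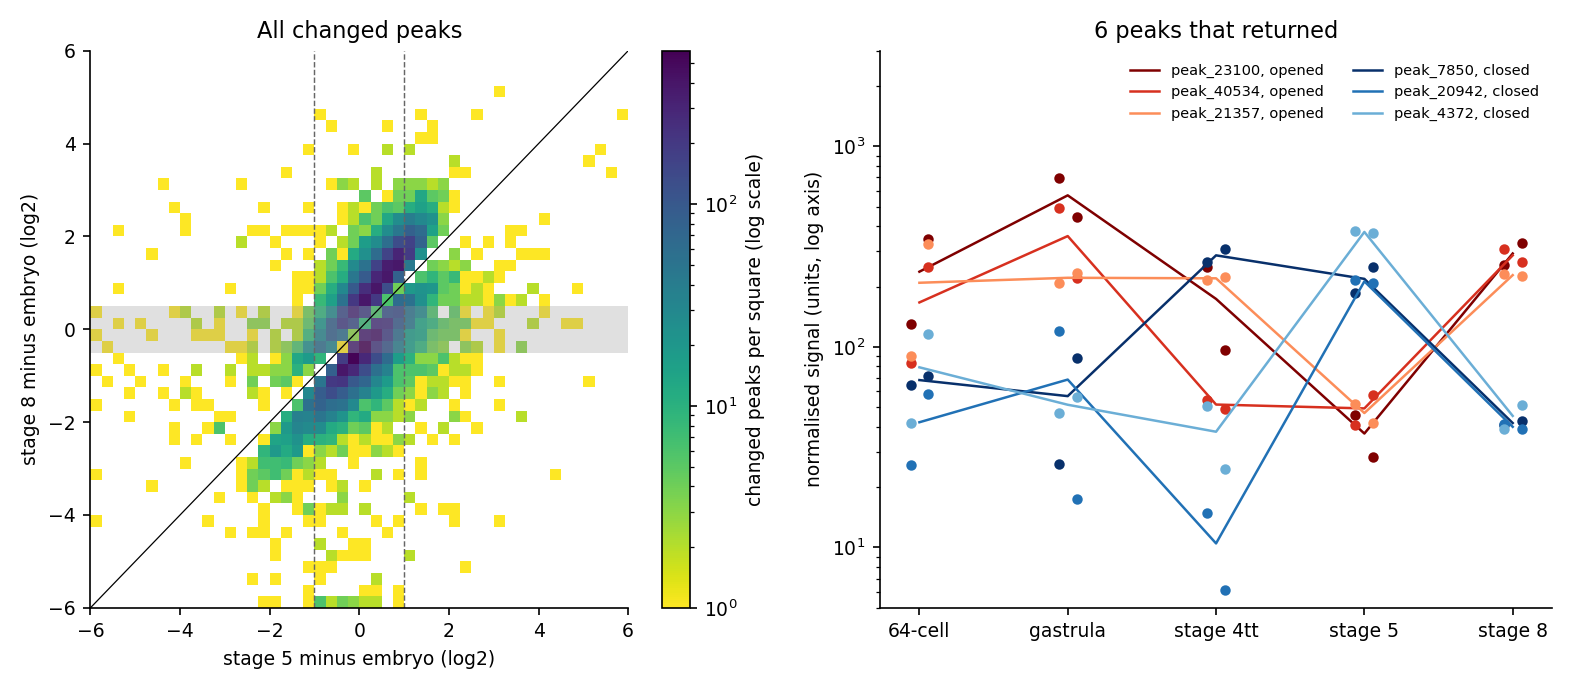
Distance from the embryonic level. Left, all 15187 changed peaks by the distance of stage 5 and of stage 8 from the mean log2 level of the 64-cell embryo and gastrula, with values beyond 6 drawn at the edge. Squares are coloured by the number of peaks, the grey band marks stage 8 within 0.5, and peaks outside the dashed lines differed by 1 or more at stage 5. Right, the 3 largest rises (red) and falls (blue) among returned peaks, with each library as a point and the mean of each stage joined by lines. By their selection all 6 have a stage 8 level within 0.5 of the mean log2 level of the 64-cell embryo and gastrula.

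Across the whole time course most opened peaks reached a new maximum. Of the 7107 opened peaks 82.4% had their highest mean of all 5 stages at stage 8, beside 32.6% of all peaks. Their median levels, in order of the 5 stages, were 376.9, 275.3, 348.1, 416.8 and 661.7 units. In the gastrula 54.2% of them had been lowest, beside 31.5% of all peaks. Closed peaks had less uniform histories. Of the 8080 closed peaks 63.7% were lowest at stage 8, beside 20.1% of all peaks, while the highest stage was the gastrula for 2619 of them, stage 5 for 2019, stage 4tt for 1916 and the 64-cell embryo for 1526. The comparison fixes part of these shares, since an opened peak cannot be lowest at stage 8 nor a closed one highest. The median difference of stage 5 from stage 4tt, which is also one between batches, was 0.25 in opened and −0.06 in closed peaks, beside 0.23 over all peaks and 0.35 in peaks that were not called. Its quartiles had opposite signs in opened, closed and not called peaks alike.

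The called peak lists of the stages, made by the authors for each library separately, allow a comparison without the consensus table. They held 56126 and 55411 peaks at stage 5 and 64765 and 62609 at stage 8, while the covered length was 37.0 and 37.6 Mb against 38.9 and 35.1 Mb. Stage 8 peaks were thus more numerous and narrower, with median widths of 465 and 438 bp against 535 and 552 bp. Merging all 4 lists where peaks shared at least 1 base gave 76334 regions. Of these 38736 were called in all 4 lists, 3189 in both stage 5 lists and neither of stage 8, and 6036 in both stage 8 lists and neither of stage 5. Regions of one stage had a low fold enrichment over background, with medians of 1.95 and 2.09, against 2.87 in regions of both stages. The excess on the stage 8 side depended on the number of peaks listed. With the strongest 40000 peaks of each list it was gone, at 3616 regions of stage 5 and 3152 of stage 8.

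The share of peaks that lay in all 4 lists was 62.8% of the opened and 68.5% of the closed peaks, against 62.9% of all peaks. Listed in both stage 8 lists and none of stage 5 were 22.7% of the opened peaks, against 9.25% of all peaks. Listed in both stage 5 lists and none of stage 8 were 12.9% of the closed peaks, against 4.50% of all peaks. Only 8 closed peaks (0.0990%) and no opened peak were listed the opposite way. In peaks of all 4 lists the fold enrichment of stage 8 over stage 5 had a median ratio of 1.27 in opened, 0.916 in closed and 1.09 in peaks that were not called. The lists use the same reads as the table, so this compares ways of processing them and not further samples.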

How the data were processed

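Chromatin was profiled by ATAC-seq in 10 libraries, 2 per stage. Per the methods of the study, the authors removed adaptors with cutadapt, mapped with NextGenMap, dropped duplicates (SAMtools), corrected read positions for the transposase offset (deepTools) and called peaks per library with MACS2 2.2.7.1. They kept reproducible peaks, removed repeats, built a consensus set with DiffBind and normalised it with DESeq2. The genome build of the mapping is not given in the sources used here. The deposited table holds this normalised signal. The deposited lists give for each peak a score, a summit offset, a fold enrichment (a ratio) and the −log10 of a p-value and of a q-value, of which the fold enrichment and the −log10 q-value were used.

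Log2(value + 1) of all 10 libraries was fitted with limma 3.58.1 in R 4.3.3 (trend, robust), without covariates. P-values of stage 8 minus stage 5 were two-sided and adjusted with Benjamini-Hochberg over 46409 peaks. No low values were removed. Fold changes on this scale understate changes of weak peaks. On simulated data for this comparison, with 46409 peaks, the test called 58.2% of 67 peaks changed 1.5-fold, 92.5% of 67 changed 2-fold and 100% of 66 changed 4-fold, and 0 of 46209 unchanged peaks. Only 200 peaks were changed there, the weakest at stage 5 were left out of the draw, and the spread followed peak strength alone. In the data 15187 peaks were called, so neither the recovery nor the absence of false calls carries over directly. The signal was a whole multiple of a slowly varying step. Within 0.1 reads, 100% of values of 1 to 50 reads and 99.8% of those of 51 to 200 reads in the 4 larval libraries came out whole. Over all values above 0 this share was 94.3% and 94.9% in the stage 5 columns and 70.2% and 87.3% in the stage 8 columns. The step was estimated from the same values, so these shares are no independent check. The recovered reads were used for depth and for edgeR 4.0.16 and DESeq2 1.42.0 as alternatives, and edgeR called 23800 peaks. Lists were compared with bedtools 2.31.1. Starts in the files count from 0 and are given counted from 1.

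The numbers 1 and 2 of the stage 5 columns could not be tied to single labelled libraries, so these columns were used as the group only. The labels do not say that replicates were separate cultures, and p-values measure the spread between these libraries. Named peaks were the 10 largest rises and falls whose lower stage had a mean of at least 20 units, the 3 strongest rises and falls, the largest in the extreme classes of width and among lone peaks, the 3 largest rises and falls among returned peaks and among those extreme at stage 8, and the longest runs. The scaffolds at the extremes by share and the peaks picked out within runs and among strong peaks were chosen after their values were seen. The comparison, the classes and the rules were chosen with earlier results of these data known. Alternatives covered pseudocount, scaling, filter, libraries, moderation, block and test.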

Additional observations from a re-analysis of the deposited data

Results flagged for a closer look

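A signal outside the main measurement was found in the peak lists. Of the 38736 regions called in all 4 lists of stage 5 and stage 8, 9358 (24.2%) overlapped no consensus peak and so were in none of the comparisons of normalised signal. Their median fold enrichment was 3.06, against 2.82 in the 29378 regions over a consensus peak. Per the methods of the study, peaks in repeats were removed from the consensus set. The part of that step in these regions was not tested.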

How the results depend on the processing

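In the main comparison 15187 peaks changed, and the count was 9507 to 9824 without one larval library, 23800 with edgeR on recovered reads and 2795 with a log2 change of at least 1 required in addition. The share opened (46.8%) was 49.6% with only the 4 larval libraries in the fit, 49.7% with DESeq2 on recovered reads, 42.7% with TMM factors, 42.8% with a log2 change of at least 1, 40.0% to 46.1% without one library, and on the other side of 50% with equal totals (51.8%). The deviations of the stage 5 and stage 8 columns with the same number had a correlation of 0.03 over peaks. With 2 libraries per stage the second pair mirrors the first, so this cannot decide whether the numbers pair the libraries. With a replicate block in the fit of the 4 larval libraries 20059 peaks changed, against 22220 without the block. Of the 7107 opened and 8080 closed peaks, 3207 and 4131 were called in the same direction in all 15 alternative fits. The ratio of the spread in strength class 1 to that in class 10 was 1.17 with a pseudocount of 10 and 2.21 to 2.40 without one library. The difference between broad and narrow peaks (26.3 percentage points) was −8.66 within 5 classes of strength and 22.3 to 24.1 without one library. Between crowded peaks (gap under 1000 bases) and isolated ones (10000 or more, or alone) it was 19.0 points, 5.87 by distance between centres, 16.6 on scaffolds with 10 or more peaks and 15.1 to 16.4 without one library. Adjacent changed peaks moved the same way in 80.6% of pairs, in 84.5% of those within 2 kb and in 84.3% to 85.1% without one library. The share returned (16.5%) was 19.4% with a pseudocount of 10, 15.0% with TMM factors, 24.1% against the 64-cell embryo, 8.07% against the gastrula, 18.8% against stage 4tt, 30.4% within 1 and 18.75% to 21.4% without one library. Regions of stage 5 only (3189) numbered 6559 with 50% overlap and 4240 to 7145 without one list. Those of stage 8 only (6036) numbered 9312 with 50% overlap, 3152 in the strongest 40000 peaks and 8482 to 13331 without one list. The cause of these differences was not tested, other than that fewer libraries or lists enter where one is left out. With 2 libraries per stage, 1.5-fold changes were recovered for 58.2% of simulated peaks, where far fewer peaks were changed than were called in the data. This recovery does not carry over directly, and peaks not called cannot be taken as unchanged. Recovery by strength was not tested.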
